A study of Sus scrofa with 10 samples.

Results

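Transporters of neurotransmitters and amino acids were compared in the hypothalamus of pigs that diverged in growth and fatness. The members were the gene rows named in the file with a symbol of solute carrier family 1, 3, 6, 7, 17, 18, 32, 36 or 38 and with an estimate in both groups. There were 53 such rows, with 49 distinct symbols, of 25009 rows in all, and each row that matched the families by name had an estimate in both groups. RNA came from 10 Iberian x Landrace backcross pigs, 5 that were high for growth and fatness and 5 that were low for both. The labels give no age, sex or treatment.

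A neuron loads transmitter into synaptic vesicles with vesicular transporters and releases it, and plasma membrane transporters on neurons and astrocytes then clear it from the extracellular space. Glutamate taken up by astrocytes is converted to glutamine, which sodium-coupled neutral amino acid transporters pass back to neurons. Other members carry amino acids across the blood-brain barrier or into cells in general. In the hypothalamus most excitatory neurons use the vesicular glutamate transporter SLC17A6, and inhibitory neurons use the vesicular transporter SLC32A1 for GABA and glycine.

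Each row had 1 FPKM value per group (fragments scaled for transcript length and library size) with a lower and an upper bound. These are the authors' values, and here the bounds follow a value in parentheses. There is no replicate check, and the depth of each sample is unknown. Values of single animals were not analysed here, so the spread between pigs could not be measured. Whether the bounds cover that spread is not known. A row was called where the intervals of the groups did not overlap, and rows with a mean below 1 FPKM over both groups were set apart. Of the 53 rows 39 passed this filter and 14 did not. Differences are log2(FPKM + 1), high minus low, and on this scale the change of a low gene appears smaller than it is.

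Of the 39 transporter rows 1 was called, SLC6A13, a GABA and taurine transporter also known as GAT2, with the higher value in the low group. Over all 15281 rows past the filter 0.458% were called in either direction, 0.432% as higher in the low group and 0.0262% as higher in the high group. An FPKM ratio of at least 1.5 in either direction was found for 4 of the 39 rows, against 9.14% of all rows. The median transporter difference was -0.07 on the log2 scale, against -0.10 over all rows. The median size of the difference, whatever its sign, was 0.15 for the transporters and 0.17 over all rows. In 37 of 39 transporter rows the value of at least 1 group lay inside the interval of the other, as in 97.5% of all rows, so the transporters as a whole were near the background.

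The balance of directions depended on how the groups were scaled. The low group had the higher value for 22 of the 39 rows and the high group for 17, where the low group had it for 67.7% of all rows. Scaling by the median of ratios, which moves each row by about 0.12 towards the high group on the log2 scale, gave 16 and 23, and quantile normalization 15 and 24. Over all rows the low group then had the higher value for 49.9% and 50.5%. The median difference of the transporters turned to 0.03 and 0.06, against 0.00073 and -0.0023 over all rows. Median-of-ratios scaling changed the sign of 6 rows, among them SLC17A6, SLC1A1 and SLC1A3, and quantile normalization that of 7.

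**Figure D1:**
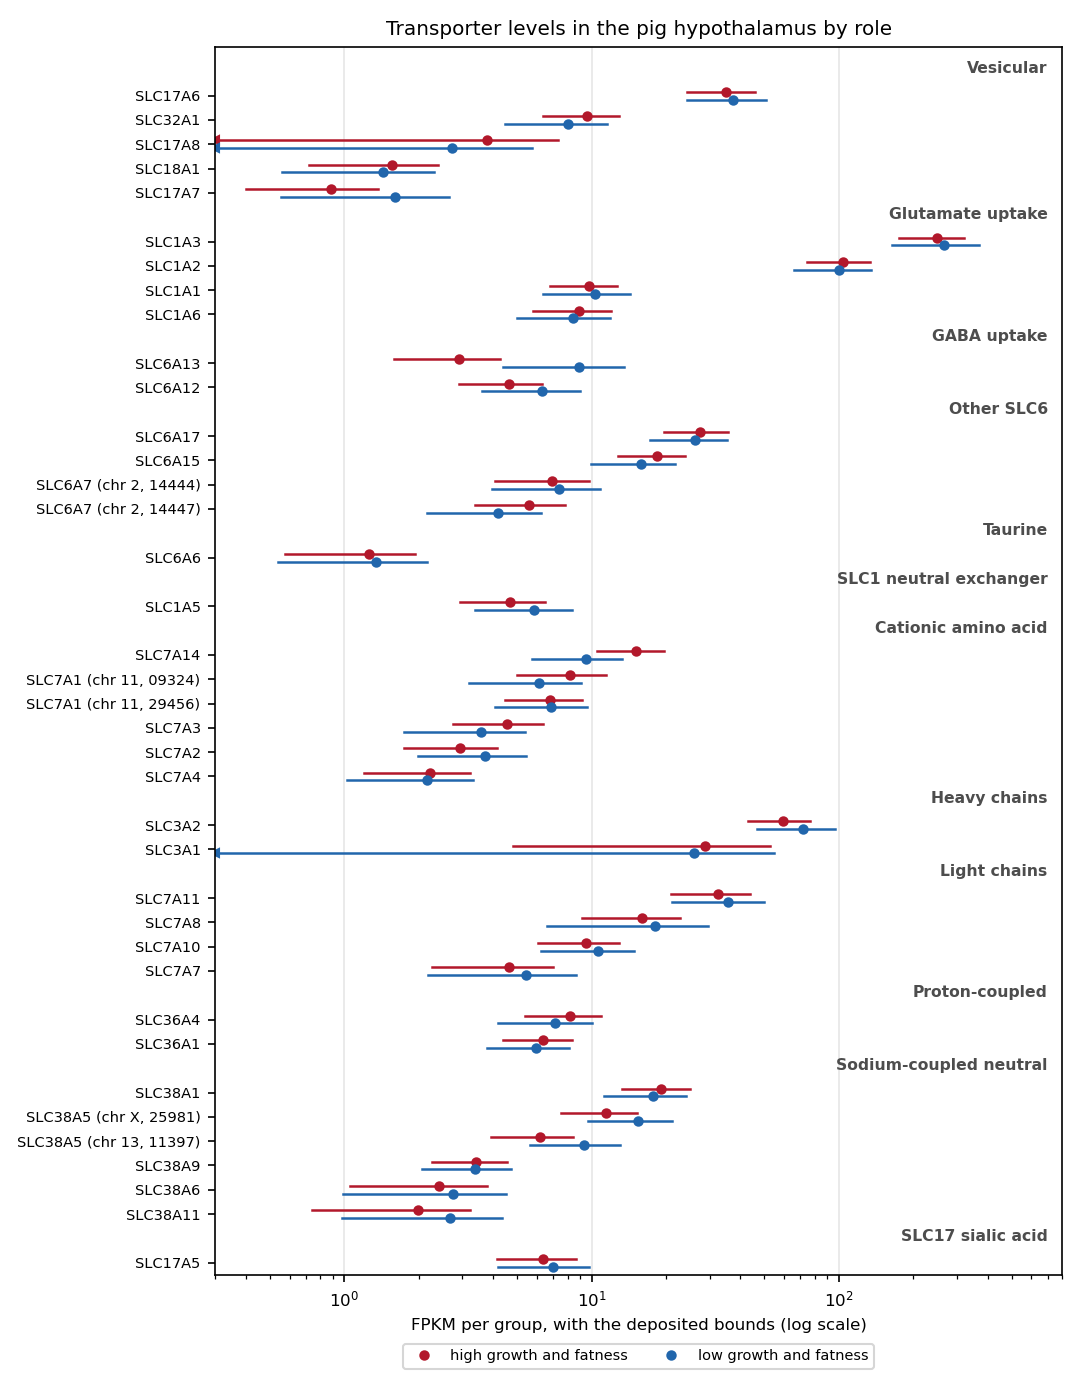
FPKM of 38 of the 39 transporter rows past the filter on a log axis, in the high group (red) and the low group (blue), with lines for the deposited bounds and an arrowhead where a lower bound lies below the axis. The intervals of SLC6A13 do not overlap and those of the other rows drawn do; the levels run from about 1 FPKM for SLC17A7 to 249 and 267 FPKM for SLC1A3. Rows that share a symbol carry their chromosome and the last digits of their Ensembl identifier.

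Among the vesicular transporters, SLC17A6 had the highest level in both groups. It was at 35.0 FPKM (24.3 to 45.8) for the high group versus 37.5 FPKM (24.3 to 50.7) for the low group. SLC32A1 was at 9.61 FPKM (6.35 to 12.9) for the high group versus 8.02 FPKM (4.45 to 11.6) for the low group. Both markers of hypothalamic neurons were thus present in both groups, and for each the intervals overlapped and held the value of the other group. The level of SLC17A6 was 3.65 times that of SLC32A1 for the high group versus 4.67 times for the low group. The intervals of these genes did not overlap within either group. These are ratios of transcript levels, and the numbers of excitatory and inhibitory neurons were not measured.

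SLC17A7, the vesicular glutamate transporter typical of cortex, was at 0.880 FPKM (0.398 to 1.36) for the high group versus 1.6 FPKM (0.556 to 2.65) for the low group. Its level was therefore below that of SLC17A6 in both groups, and its low-to-high ratio was 1.82 with overlapping intervals. SLC17A7 passed the filter through the low group alone, its high group value being below 1 FPKM. SLC17A8, the vesicular glutamate transporter found in scattered neurons that also use other transmitters, was at 3.77 FPKM (0.235 to 7.31) and 2.71 FPKM (0 to 5.74). The row of SLC17A8 covers only a short stretch, chromosome 5 from 87925383 to 87926533, and its bounds were among the widest of the members past the filter. SLC18A1, a vesicular monoamine transporter, was at 1.56 and 1.43 FPKM. From SLC32A1 down to SLC17A7, the intervals of each pair of neighbours in the order of levels overlapped in both groups.

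SLC18A2, the vesicular monoamine transporter of neurons, and SLC18A3, that of acetylcholine, carry no symbol in the file and were named from a table of identifiers, so neither is a member. SLC18A2 was at 8.88 FPKM (5.69 to 12.1) for the high group versus 7.0 FPKM (3.88 to 10.1) for the low group. SLC18A3 was below the filter, at 0.405 and 0.477 FPKM.

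The glutamate transporters of the plasma membrane held the 2 highest levels of all members. SLC1A3, an astrocyte glutamate transporter also known as GLAST, was at 249 FPKM (175 to 322) for the high group versus 267 FPKM (164 to 369) for the low group. SLC1A2, the main astrocyte glutamate transporter of the forebrain, was at 104 FPKM (74.3 to 134) and 100.3 FPKM (66.0 to 135). Over all rows past the filter 1.54% had a higher mean than SLC1A3 and 4.16% a higher mean than SLC1A2. The level of SLC1A3 was 2.38 times that of SLC1A2 for the high group versus 2.66 times for the low group, with intervals that did not overlap within either group.

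SLC1A1, a glutamate transporter mainly of neurons, was at 9.73 and 10.3 FPKM, and SLC1A6, known from Purkinje cells, at 8.89 and 8.42 FPKM. The intervals of SLC1A1 and SLC1A6 overlapped, and both lay below those of SLC1A2. For these 4 genes the differences between the groups ran from -0.10 to 0.07, with a median of -0.01 that turned to 0.10 after median-of-ratios scaling and 0.16 after quantile normalization. SLC1A7, which is known from retina, was below the filter at 0.271 and 0.299 FPKM. At the outer limits of the bounds, the low-to-high ratio of SLC1A3 could lie anywhere from 0.510 to 2.11 and that of SLC1A2 from 0.491 to 1.81. These ranges set opposite bounds against each other. The confidence level of the bounds is not given, so no limit of detection follows, and a change could have been missed.

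Astrocyte markers gave a background for these 2 genes. The list chosen for astrocytes had 6 of 8 genes with an estimate, with a median difference of -0.30. This median was -0.19 after median-of-ratios scaling and -0.03 after quantile normalization. The low group was higher for 6 of 6, against 67.7% of all rows. After either scaling it was higher for 5 of 6, against 49.9% and 50.5% of all rows. The summed level of those 6 was 1404 FPKM for the high group versus 1832 FPKM for the low group. Within the list GFAP was listed at 0 in both groups without an estimate, and FGFR3 was not matched. No interval of the 6 was apart. In whole tissue, fewer cells of a type and less RNA per cell cannot be told apart.

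The GABA transporters showed the only called difference. SLC6A13 was at 2.92 FPKM (1.59 to 4.24) for the high group versus 8.92 FPKM (4.36 to 13.5) for the low group, a low-to-high ratio of 3.06. The gap between the intervals was narrow, since the lower bound of the low group was 1.03 times the upper bound of the high group. After median-of-ratios scaling the ratio was 2.82 and after quantile normalization 2.92, and the intervals overlapped under both. In a two-sided z test from the bounds, which took each half-width as 2 SD and was adjusted over all rows by Benjamini-Hochberg, SLC6A13 had an adjusted p of 0.27 and was not called. That value rests on the authors' bounds and is not a test across animals.

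SLC6A12, the betaine and GABA transporter BGT1, lies 4.64 kb before SLC6A13 on chromosome 5 of build Sscrofa10.2, with SLC6A12 (ENSSSCG00000000749) at 69838027 to 69860663 and SLC6A13 (ENSSSCG00000030076) at 69865305 to 69898005. SLC6A12 was at 4.61 FPKM (2.92 to 6.31) for the high group versus 6.28 FPKM (3.61 to 8.94) for the low group, a ratio of 1.36 with overlapping intervals. In the high group SLC6A12 had the higher point value of the pair, 1.58 times that of SLC6A13, whereas in the low group it was 0.704 times. The intervals of the pair overlapped within each group, so neither order was beyond the bounds. Whether the ratios of the pair differ from each other was not tested.

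SLC6A5, a glycine transporter of inhibitory neurons, was below the filter at 0.0804 and 0.0296 FPKM. The astrocyte GABA transporter SLC6A11 and the glycine transporter SLC6A9 were not matched to a row.

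In the list of markers of fibroblasts, mural cells and meninges, most rows were called in the same direction as SLC6A13. The list was chosen with its difference between these groups already known, so its direction is not independent evidence. All 8 of its genes were found, on 11 rows, and 11 of 11 were higher in the low group, with a median difference of -1.39 and 7 of 11 rows called. After median-of-ratios scaling 10 of 11 were higher in the low group, after quantile normalization 11 of 11, and 5 were called under each. Their summed level was 65.8 FPKM for the high group versus 222 FPKM for the low group, a low-to-high ratio of 3.37, and none was at 0. COL3A1, a fibrillar collagen, was at 4.20 and 21.5 FPKM, and CRABP2, a retinoic acid binding protein, at 2.12 and 22.5 FPKM. The 4 rows not called were 1 of COL1A2, LUM and both rows of PDGFRB. PDGFRB, a receptor of mural cells and fibroblasts, was at 3.98 and 4.89 FPKM on one row, a low-to-high ratio of 1.23, and at 2.51 and 2.63 FPKM on the other, a ratio of 1.05. COL3A1 and CRABP2 had the largest ratios of the list, 5.13 and 10.6. SLC6A13 is known from meningeal and perivascular cells as well as from liver and kidney. The part of these cells in the difference of SLC6A13 was not tested.

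**Figure D2:**
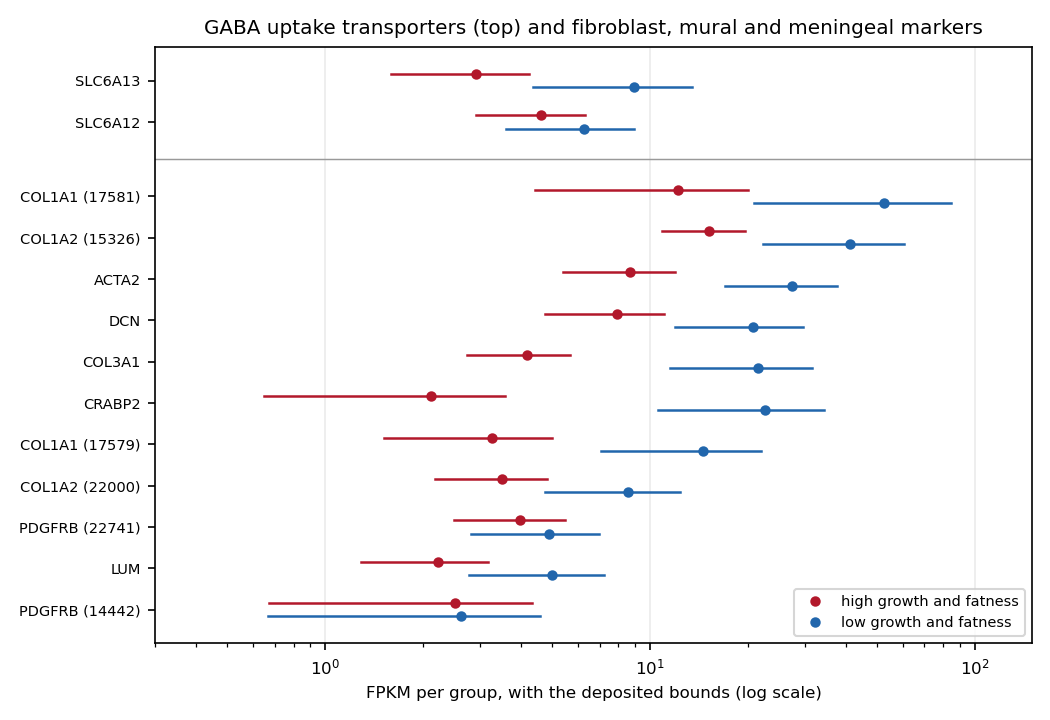
FPKM on a log axis of 2 GABA transporters past the filter (top) and of the 11 rows of the fibroblast, mural cell and meningeal list (bottom), high group in red and low group in blue, with the deposited bounds. SLC6A13 sits at 2.92 against 8.92 FPKM, while the intervals of SLC6A12 overlap between the groups.

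The plasma membrane transporters of the monoamines were all below the filter. SLC6A3, the dopamine transporter, was at 0.60 and 0.531 FPKM, SLC6A4, the serotonin transporter, at 0.152 and 0.146 FPKM, and SLC6A2, the noradrenaline transporter, at 0.0137 and 0.0837 FPKM. These 3 genes are transcribed in the cell bodies of monoamine neurons, most of which lie in the midbrain and hindbrain. The intervals of each overlapped between the groups, and the bounds of SLC6A2 reached 0 in both.

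SLC6A17 and SLC6A15, transporters of neutral amino acids in neurons, led the other members of the SLC6 family. SLC6A17 was at 27.5 FPKM (19.6 to 35.5) and 26.3 FPKM (17.2 to 35.3), and SLC6A15 at 18.4 FPKM (12.8 to 23.9) and 15.9 FPKM (9.93 to 21.8). SLC6A7, the proline transporter of glutamatergic terminals, has 2 rows on chromosome 2, at 6.94 against 7.36 FPKM (ENSSSCG00000014444) and at 5.58 against 4.20 FPKM (ENSSSCG00000014447). RefSeq lists 1 gene of that symbol, so reads may be split between the rows and their values are uncertain. SLC6A6, the taurine transporter, was at 1.25 and 1.35 FPKM. Of the members known mainly from gut and kidney, SLC6A14, SLC6A18 and SLC6A19 were each below 0.05 FPKM in both groups.

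The row of SLC6A8, the creatine transporter, and that of SLC6A20, a proline and imino acid transporter, were named from the table of identifiers and are not members. SLC6A8 was at 24.7 FPKM (17.6 to 31.9) for the high group versus 38.4 FPKM (24.9 to 51.8) for the low group, a ratio of 1.55. SLC6A20 was at 12.6 FPKM (7.03 to 18.2) and 18.2 FPKM (9.60 to 26.7). Both were higher in the low group with overlapping intervals, and the choroid plexus list, where SLC6A20 is also known, had a summed level of 319 against 477 FPKM. Most of that sum was TTR, at 268 and 407 FPKM, KL was at 7.39 and 7.12 FPKM, and no row of the list was called. The part of choroid plexus was not tested. Of the 9 family rows named this way, 6 passed the filter and none was called.

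Among the cationic amino acid transporters, SLC7A14, a lysosomal member found mostly in neurons, was the only one of the 39 rows with a ratio of at least 1.5 towards the high group. It was at 15.1 FPKM (10.5 to 19.7) for the high group versus 9.49 FPKM (5.73 to 13.3) for the low group, a high-to-low ratio of 1.59 with overlapping intervals. Over all rows 2.76% reached that ratio towards the high group. After median-of-ratios scaling SLC17A8 reached it as well, at 1.51. SLC7A1, the general carrier of arginine and lysine, has 2 rows on chromosome 11, at 8.19 against 6.13 FPKM (ENSSSCG00000009324) and 6.80 against 6.82 FPKM (ENSSSCG00000029456), and again RefSeq lists 1 gene. SLC7A3, a carrier of the same substrates found in neurons, was at 4.54 and 3.56 FPKM on chromosome X, and SLC7A2 at 2.94 and 3.71 FPKM. SLC7A4 was at 2.22 and 2.16 FPKM. A further row named SLC7A3 on chromosome 6, below the filter at 0.795 and 0.296 FPKM, is of doubtful name, as RefSeq lists 1 gene of that symbol, on chromosome X. In this group 4 of 6 rows were higher in the high group, against 32.3% of all rows, or 5 of 6 after either scaling. After the scalings the low group had the higher value for 49.9% and 50.5% of all rows. The median of the 6 rows was 0.15, and 0.24 and 0.21 after the scalings. Median-of-ratios scaling moves every row towards the high group, so it could not lower this count or this median. None of the 6 was called, and 2 of them are the rows of SLC7A1.

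Heteromeric transporters pair a heavy chain with a light chain that carries the substrate. SLC3A2, the heavy chain known as 4F2hc or CD98, was at 59.7 FPKM (42.8 to 76.6) for the high group versus 71.6 FPKM (46.7 to 96.4) for the low group. SLC7A11, the cystine and glutamate exchanger of astrocytes and a partner of SLC3A2, was at 32.4 FPKM (21.0 to 43.8) and 35.5 FPKM (21.2 to 49.7). The level of SLC3A2 was 1.84 times that of SLC7A11 for the high group versus 2.02 times for the low group. SLC7A11 lies on an unplaced scaffold.

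The other light chains were lower. SLC7A8, a carrier of large neutral amino acids, was at 15.9 and 18.1 FPKM, SLC7A10, the alanine, serine and cysteine exchanger Asc-1, at 9.50 and 10.6 FPKM, and SLC7A7 at 4.61 and 5.42 FPKM. Neighbours in this order overlapped in both groups. With SLC7A11, 4 of 4 light chains past the filter were higher in the low group, by -0.19 to -0.13 on the log2 scale, which is close to the median of -0.10 over all rows. SLC7A11 turned to the high group after quantile normalization. SLC7A9 was at 0.0317 FPKM for the high group versus listed at 0 for the low group, and SLC7A13 was listed at 0 in both. SLC7A5, the large neutral amino acid carrier of the blood-brain barrier, was not matched to a row.

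SLC3A1, the heavy chain of the kidney and gut cystine transporter, stood at 28.8 FPKM (4.81 to 52.8) for the high group versus 26.1 FPKM (0 to 54.9) for the low group. Its row has the same stretch of chromosome 3 in the file, 102250487 to 102356772, as the row of PREPL. PREPL, a peptidase-like protein of neurons, was at 100.2 and 92.3 FPKM. The intervals of SLC3A1 were among the widest of the members past the filter, and how reads were divided between the 2 rows is not known from the labels or the file, so its level is uncertain. In all 7 members share their stretch with another row, among them SLC7A7 with OXA1L and SLC38A6 with TRMT5. For SLC1A3 the other row is one of the small RNA U6, listed at 0 in both groups, and for the second SLC6A7 row one of U1, at 0.455 and 0.705 FPKM.

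Sodium-coupled neutral amino acid transporters held 2 rows named in the file as SLC38A5, a glutamine and serine transporter. The row on chromosome X (ENSSSCG00000025981, 47547721 to 47558697) was at 11.4 FPKM (7.52 to 15.3) for the high group versus 15.4 FPKM (9.66 to 21.2) for the low group, a ratio of 1.35. The row on chromosome 13 (ENSSSCG00000011397, 35863386 to 35878405) was at 6.17 FPKM (3.91 to 8.43) and 9.32 FPKM (5.65 to 13), a ratio of 1.51. The table of identifiers gives this row as SLC38A3, the glutamine transporter SNAT3 of astrocytes. In the file GNAT1 and SEMA3B lie to either side of it, as they do around SLC38A3 in RefSeq (Sscrofa11.1), so the symbol in the file is in doubt. Both rows were higher in the low group under each scaling tried, with overlapping intervals, and after either scaling the ratio of the row on chromosome 13 was below 1.5.

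SLC38A1, a glutamine transporter of neurons, had the highest level of this family, 19.1 FPKM (13.3 to 25.0) for the high group versus 17.7 FPKM (11.3 to 24.1) for the low group. SLC38A9, the lysosomal arginine sensor that acts upstream of the kinase mTOR, was at 3.41 and 3.39 FPKM. SLC38A6 was at 2.42 and 2.75 FPKM, and SLC38A11 at 1.98 and 2.66 FPKM. SLC38A4, a liver carrier, was below the filter at 0.176 and 0.144 FPKM. SLC38A2, a widely expressed member named from the table of identifiers, was at 16.5 FPKM in both groups.

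Of the proton-coupled transporters, SLC36A4 was at 8.15 and 7.11 FPKM and SLC36A1, which exports amino acids from lysosomes, at 6.35 and 5.93 FPKM. SLC36A3 was below the filter at 0.0417 and 0.0192 FPKM. SLC1A5, a glutamine exchanger, was at 4.69 and 5.87 FPKM, and SLC17A5, the lysosomal sialic acid exporter sialin, at 6.39 and 6.98 FPKM. All of these overlapped between the groups. SLC17A4, an organic anion carrier, was at 0.00421 FPKM for the high group versus listed at 0 for the low group.

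Enzymes that make and break down transmitters were described from a list of 23 genes. Of its 20 rows past the filter the low group was higher for 11 and the high group for 9, none was called, and the median was -0.07. Median-of-ratios scaling turned this balance to 9 and 11, and quantile normalization to 8 and 12. The GABA-synthesising enzymes GAD1 (39.2 and 32.6 FPKM) and GAD2 (33.2 and 23.4 FPKM) had the higher point value in the high group, as did SLC32A1. The intervals of each overlapped between the groups, and the GABA transporters SLC6A12 and SLC6A13 had the higher value in the low group. Glutamine synthetase, GLUL, was at 414 and 600 FPKM. GLUL also belongs to the astrocyte list.

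Genes of amino acid sensing and of the response to amino acid shortage gave 9 rows past the filter. The low group was higher for 5 and the high group for 4, none was called, and the median was -0.06, with 4 and 5 after either scaling. ASNS, asparagine synthetase and a target of the factor ATF4, was at 15.9 and 15.5 FPKM. CHAC1, another target, was at 7.42 and 6.50 FPKM.

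**Figure D3:**
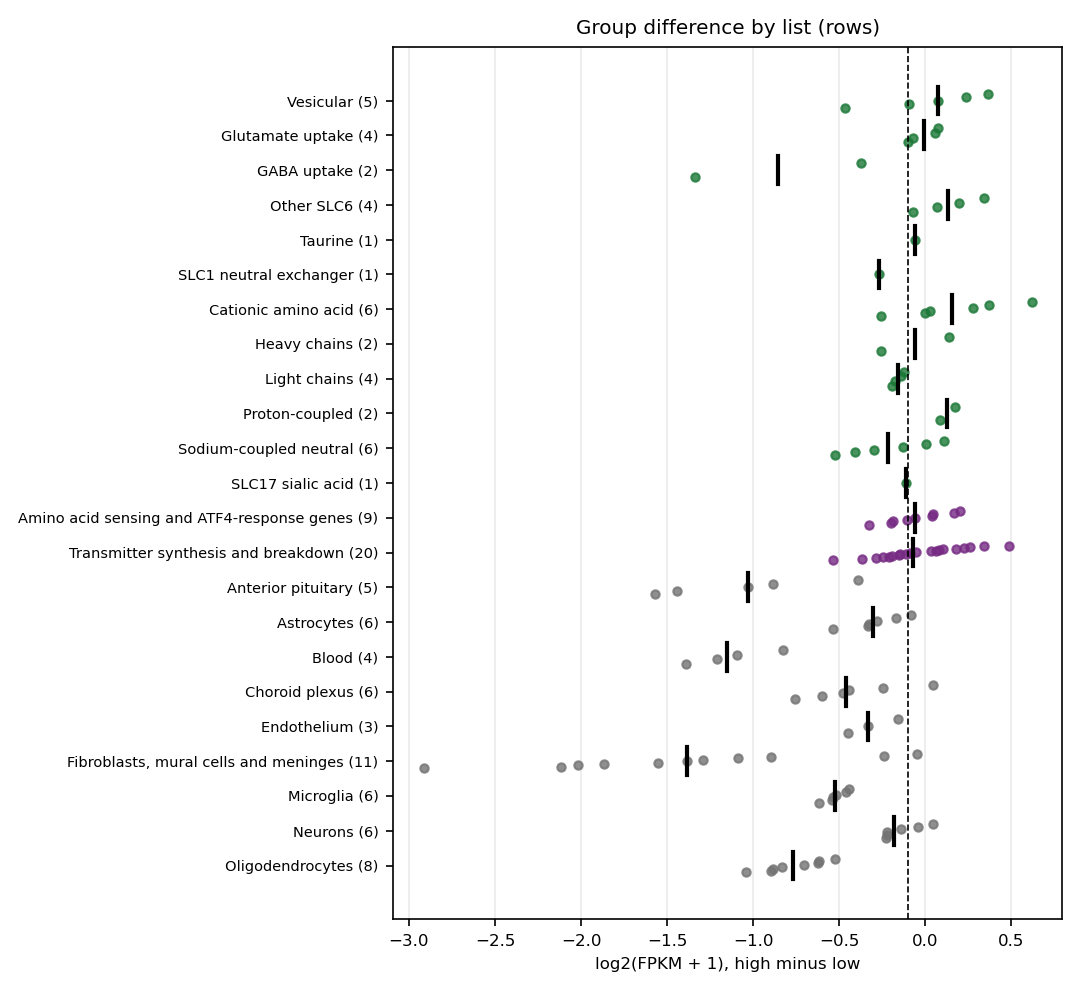
Difference of each row past the filter, log2(FPKM + 1) high minus low, for transporter roles (green, 38 of the 39 rows), enzyme and amino acid sensing lists (purple) and cell type markers (grey); black bars are medians and the dashed line is the median of all rows, -0.10. Apart from SLC6A13 at -1.34 the transporter rows lie between -0.53 and 0.62, while the fibroblast list has a median of -1.39.

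Other cell type lists gave the following background. Neuronal markers had a median of -0.18 over 6 rows, which turned to 0.06 after quantile normalization, with a summed level of 1290 FPKM for the high group versus 1399 FPKM for the low group. Endothelial markers had a median of -0.33 over 3 rows, microglial markers -0.53 over 6 and oligodendrocyte markers -0.77 over 8. Blood markers had a median of -1.15 over 4 rows with 2 called, or 1 after quantile normalization, and anterior pituitary markers -1.03 over 5. The part of these cells in the levels of the transporters was not tested.

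**Figure D4:**
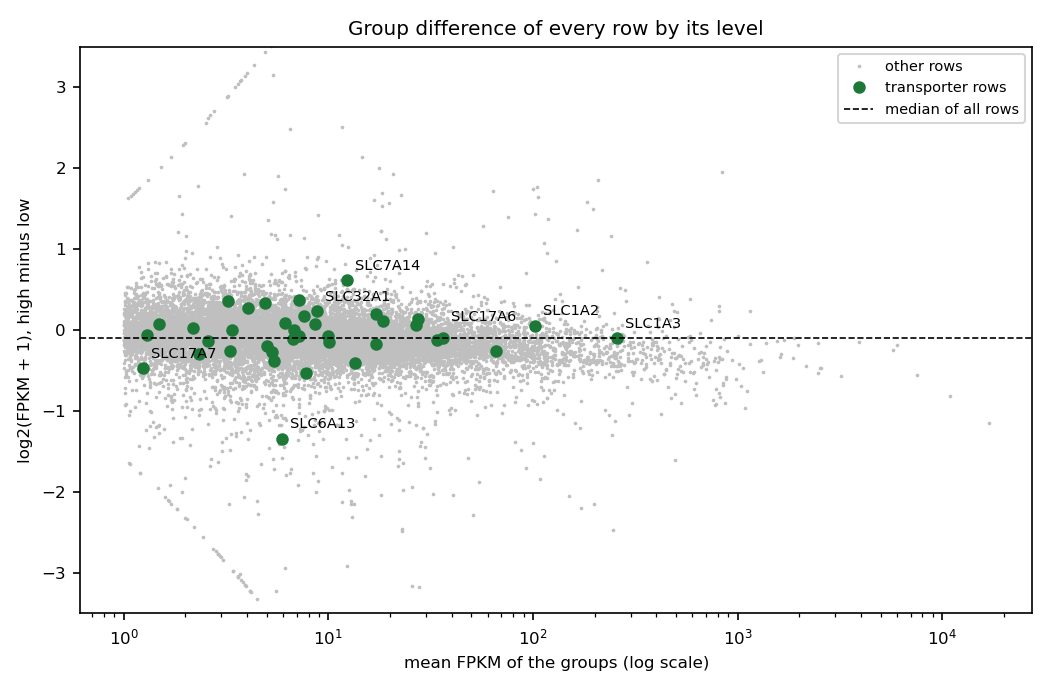
Difference of each row past the filter, log2(FPKM + 1) high minus low, against its mean FPKM on a log axis, 38 of the 39 transporter rows in green and rows of other genes in grey; 94 other rows lie outside the plotted range. SLC6A13 stands apart from the other transporter rows, and SLC7A14 has the highest difference among them, 0.62.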

How the data were processed

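RNA from 10 hypothalami was extracted with a RiboPure kit and sequenced as paired-end TruSeq libraries on an Illumina HiSeq instrument, per the labels' protocols. The submitters' processing notes name TopHat2 2.0.5, Cufflinks 2.0.2 and build Sscrofa10.2, with no roles. The authors deposited FPKM as 1 value per row and group, with 2 bounds and an estimate status, per the file headers. The confidence level is not given in the sources used here. No test across animals could be made on 1 value per group. Rows without an estimate in both groups were left out, which left 24951 of 25009.

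Python 3.11.15 with pandas 2.3.3 and scipy 1.17.1 computed the differences (pseudocount 1), the overlap of intervals, the z value and its Benjamini-Hochberg adjustment at 0.05. A check on simulated data covered the ratios put in and the direction of rows called, not the z value or its adjustment. The simulated data took each half-width as 2 SD, as the z test does, so they cannot test the bounds. Symbols come from the file, and of the 53 members 45 were matched in the table of identifiers, 44 with the same symbol. Starts were counted from 0 in the file (8 rows start at 0) and are printed from 1. Named genes were the markers SLC17A6 and SLC32A1, called members, those with a ratio of at least 1.5, the 3 highest of each role and a fixed set of transporters. Members below the filter and rows with the most uncertain values lie partly outside this rule, as do PREPL, the genes of the other lists and the family rows named from the table. One member within this rule is not reported here. The members and lists were chosen with earlier results of these data known. Alternatives were pseudocounts of 0.1 and 0.5, no filter, a mean of at least 5 FPKM, median-of-ratios scaling, quantile normalization, 1 row per symbol, a ratio of at least 2 and the z rule.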

Additional observations from a re-analysis of the deposited data

How the results depend on the processing

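The 1 transporter row with intervals apart, SLC6A13, became 0 after median-of-ratios scaling and after quantile normalization. Its log2 difference was then -1.24 and -1.28, against -1.34. Over all rows past the filter 70 had intervals apart, and 55 and 53 after these scalings. The count of transporter rows was also 0 by the z rule, which called 32 of all rows. It remained 1 without a filter, with the filter at 5 FPKM and with 1 row per symbol. The 4 rows past a ratio of 1.5 became 9 without a filter, where 53 rows were counted, against 15.2% of all rows. At a ratio of at least 2 there was 1 transporter row, against 2.94% of all rows. Under the other settings there were 3 or 4, not always the same rows. After median-of-ratios scaling SLC17A8 took the place of the row on chromosome 13 that is named SLC38A5 in the file. The cause was not tested, apart from the rows added without a filter and the higher ratio itself. The median of the transporter rows ran from -0.08 to 0.06, and was 0.00095 without a filter. Median-of-ratios scaling turned the sign of 3 of the 12 role medians, those of the heavy chains, the glutamate transporters and the taurine transporter, and quantile normalization that of the first 2; the taurine transporter has no value with the filter at 5 FPKM. No paired analysis was possible because each group has a single value, and no animal could be left out either. With depth unknown, its limits were not measured.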
